A study of Mus musculus with 6 samples.

Results

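The Kruppel-like factors (KLFs) examined here are Klf2, Klf3, Klf4, Klf6, Klf7, Klf9, Klf10, Klf11 and Klf13. The 9 genes were taken by symbol from the 37043 gene symbols of a raw count table of mouse bone marrow-derived basophils (BMBAs). All BMBAs were grown from bone marrow of wild-type C57BL/6J mice in a 7-day culture with 0.3 ng/mL of a cytokine that the methods of the study give as IL-3, and were enriched with beads against CD49b. They were then stimulated for 6 h with control PBS (3 cultures) or with 10 ng/mL IL-3 (3 cultures) and subjected to bulk RNA-seq. Both groups had thus grown in low-dose IL-3 before the stimulation, and the sources used here do not say whether it stayed in the PBS medium. In the study, the comparison was made to ask how IL-3 acts on basophils and their precursors in relation to egress from the bone marrow. Nothing says that the cultures came from separate mice, so the p-values measure the spread between these cultures.

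KLFs are transcription factors that bind GC-rich and CACCC sequences through a block of C2H2 zinc fingers at their C-terminal end. By their partners they fall into CtBP-binding repressors (Klf3, Klf8, Klf12), factors that mostly activate (Klf1, Klf2, Klf4, Klf5, Klf6, Klf7) and Sin3A-binding repressors (Klf9, Klf10, Klf11, Klf13, Klf14, Klf16). In blood cells they are known for roles in quiescence and trafficking of lymphocytes (KLF2), in monocyte differentiation (KLF4) and in red cell formation (KLF1).

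Members of the family changed in both directions. Klf11 transcripts were 3.90-fold lower after IL-3 than after PBS (95% interval 3.06 to 4.99), whereas Klf2 transcripts were 2.34-fold higher (95% interval 1.75 to 3.13). Klf3, Klf7 and Klf10 fell and Klf6 rose by smaller amounts, and Klf4, Klf9 and Klf13 were not called. All 9 genes passed the filter on low counts. With genes called where the adjusted p of the quasi-likelihood test in edgeR was under 0.05, 2 of the 9 were higher and 4 were lower in IL-3. Among all 16675 genes tested 38.2% were called, 18% higher and 20.2% lower. The libraries of both groups did not overlap in the same 6 of 9 genes, beside 48.2% of all genes tested.

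**Figure D1:**
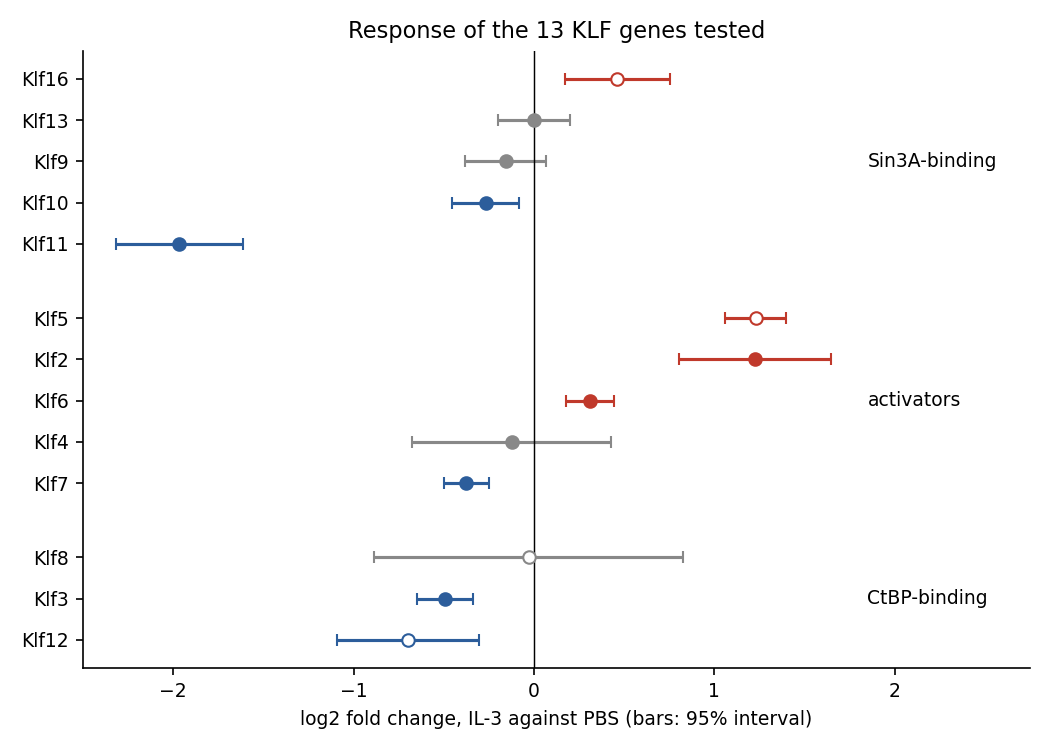
Log2 fold changes (IL-3 against PBS, x axis) of the 13 KLF genes that could be tested, grouped by partner class, with 95% intervals. Filled points are the 9 factors described here and open points other family genes. Red marks genes called higher, blue lower and grey not called. Klf11 lies at -1.97, apart from all others, while Klf2 and Klf5 both lie at 1.23.

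Promoter sequences were taken from RefSeq (GRCm38.p6), in which 8 of the 9 genes had an entry. They are shown for both genes that rose and for the 2 that fell most on the log2 scale. Each covers 250 bases before to 50 bases after the annotated start, in the direction of transcription. Capitals mark CACCC, the box bound by KLFs, and GGGCGG, the GC box bound by Sp factors and KLFs, on either strand. Klf11 (chr12:24651121-24651420, plus strand) and Klf3 (chr5:64803271-64803570, plus strand) are the genes that fell most. Klf2 (chr8:72318812-72319111, plus strand) and Klf6 (chr13:5861239-5861538, plus strand) are the genes that rose.
Klf11: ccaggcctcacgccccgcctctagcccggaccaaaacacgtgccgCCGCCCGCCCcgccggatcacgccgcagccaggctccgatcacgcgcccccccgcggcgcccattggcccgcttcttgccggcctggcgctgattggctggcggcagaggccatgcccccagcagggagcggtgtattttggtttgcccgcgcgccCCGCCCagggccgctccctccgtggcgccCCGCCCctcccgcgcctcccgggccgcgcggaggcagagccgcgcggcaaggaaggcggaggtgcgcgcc
Klf3: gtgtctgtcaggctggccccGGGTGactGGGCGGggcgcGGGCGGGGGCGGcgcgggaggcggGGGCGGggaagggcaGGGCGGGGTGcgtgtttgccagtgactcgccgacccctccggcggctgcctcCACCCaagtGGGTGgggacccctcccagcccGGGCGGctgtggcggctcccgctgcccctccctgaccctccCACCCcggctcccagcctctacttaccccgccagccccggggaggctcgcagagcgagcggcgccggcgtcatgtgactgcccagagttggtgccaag
Klf2: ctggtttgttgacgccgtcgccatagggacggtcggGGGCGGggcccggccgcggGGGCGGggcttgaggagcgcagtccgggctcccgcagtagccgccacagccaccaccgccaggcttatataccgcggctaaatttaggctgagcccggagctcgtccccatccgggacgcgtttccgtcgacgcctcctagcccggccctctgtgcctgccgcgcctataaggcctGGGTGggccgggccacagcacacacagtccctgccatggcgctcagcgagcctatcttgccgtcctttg
Klf6: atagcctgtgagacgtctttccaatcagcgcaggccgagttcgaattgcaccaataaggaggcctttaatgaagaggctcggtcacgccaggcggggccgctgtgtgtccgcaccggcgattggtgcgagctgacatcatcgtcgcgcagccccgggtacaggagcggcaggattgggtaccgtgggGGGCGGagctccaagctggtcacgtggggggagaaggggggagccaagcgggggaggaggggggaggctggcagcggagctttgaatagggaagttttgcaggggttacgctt

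The Klf3 window held 5 CACCC and 6 GGGCGG matches, with 1 base shared between a match of each kind. The Klf11 window held 4 GGGCGG and 0 CACCC matches, the Klf2 window 2 and 1, and the Klf6 window 1 and 0. CACCC was found in 5 of the 8 promoters and in 57.5% of all 32851 promoters of this length. GGGCGG was found in 7 of the 8 and in 35.7% of all. The 8 windows were 58.3% (Klf7) to 77.7% (Klf11) G and C, beside a median of 52.7% over all promoters. The shares over all promoters are thus not matched for base composition. The letters TTCNNNGAA, the pattern bound by STAT factors, occurred on either strand in 1 of the 8 windows, that of Klf9, and in 8.30% of all. TGANTCA, the AP-1 pattern, likewise occurred only in the Klf9 window among the 8, and in 7.81% of all. In the Klf9 window the TGANTCA and CACCC matches overlap each other. These matches are a description of the letters in the windows.

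Klf2 encodes a factor that in lymphocytes maintains quiescence and the expression of trafficking receptors. It is a compact gene of 3 exons (chromosome 8, 72319033 to 72321656, GRCm38). Normalised expression in CPM, that is counts scaled to a common library size by TMM, was 6.63, 3.59 and 4.14 in the PBS libraries and 10.8, 11.2 and 11.8 in the IL-3 libraries. The IL-3 libraries were close to each other and all above the PBS libraries, among which replicate 1 was highest. The means were 4.79 ± 1.62 and 11.3 ± 0.514 CPM (SD, n = 3 each). This is a rise of 1.23 on the log2 scale (SE 0.198, edgeR adjusted p 0.000128). The value rests on 41 to 152 raw counts per library and was between 1.06 and 1.54 with 1 library left out.

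Klf6, a factor induced in many activated and injured cells, was the most abundant member. Its gene lies on chromosome 13 (5861482 to 5870394). It had 228, 213 and 206 CPM in PBS and 246, 273 and 284 CPM in IL-3. The groups did not overlap, and the change on the log2 scale was smaller than that of Klf2. Klf6 rose by 0.31 on the log2 scale (SE 0.0627, edgeR adjusted p 0.000972). Scaling by library totals alone, which shifted the median log2 fold change of all genes to -0.17, gave 0.15 for Klf6 with an adjusted p of 0.0613.

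Klf7 is the closest relative of Klf6 and is known from neurons and blood progenitors. It went the other way. Its gene is the longest of the 9 (chromosome 1, 64029447 to 64122282). It had 120.3, 119.6 and 122.9 CPM in PBS and 88.5, 93.3 and 97.9 CPM in IL-3. No IL-3 library reached the lowest PBS library. Klf7 fell by 0.37 on the log2 scale (SE 0.0593, edgeR adjusted p 0.000109). An antisense gene within its span, Gm13748, had 3 to 24 counts per library against 896 to 1471 for Klf7, and the sources used here do not give the use of strand in counting.

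Klf4, which takes part in monocyte differentiation and is one of the reprogramming factors, was the least abundant of the 9 in PBS. It had 4.09, 3.16 and 2.38 CPM in PBS and 3.55, 2.58 and 2.79 CPM in IL-3, so that the groups overlapped. Its log2 fold change was -0.12 with an interval of -0.67 to 0.43 (edgeR adjusted p 0.757). The value rests on 27 to 50 counts per library and was 0.094 without PBS replicate 1, so no direction is given.

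**Figure D2:**
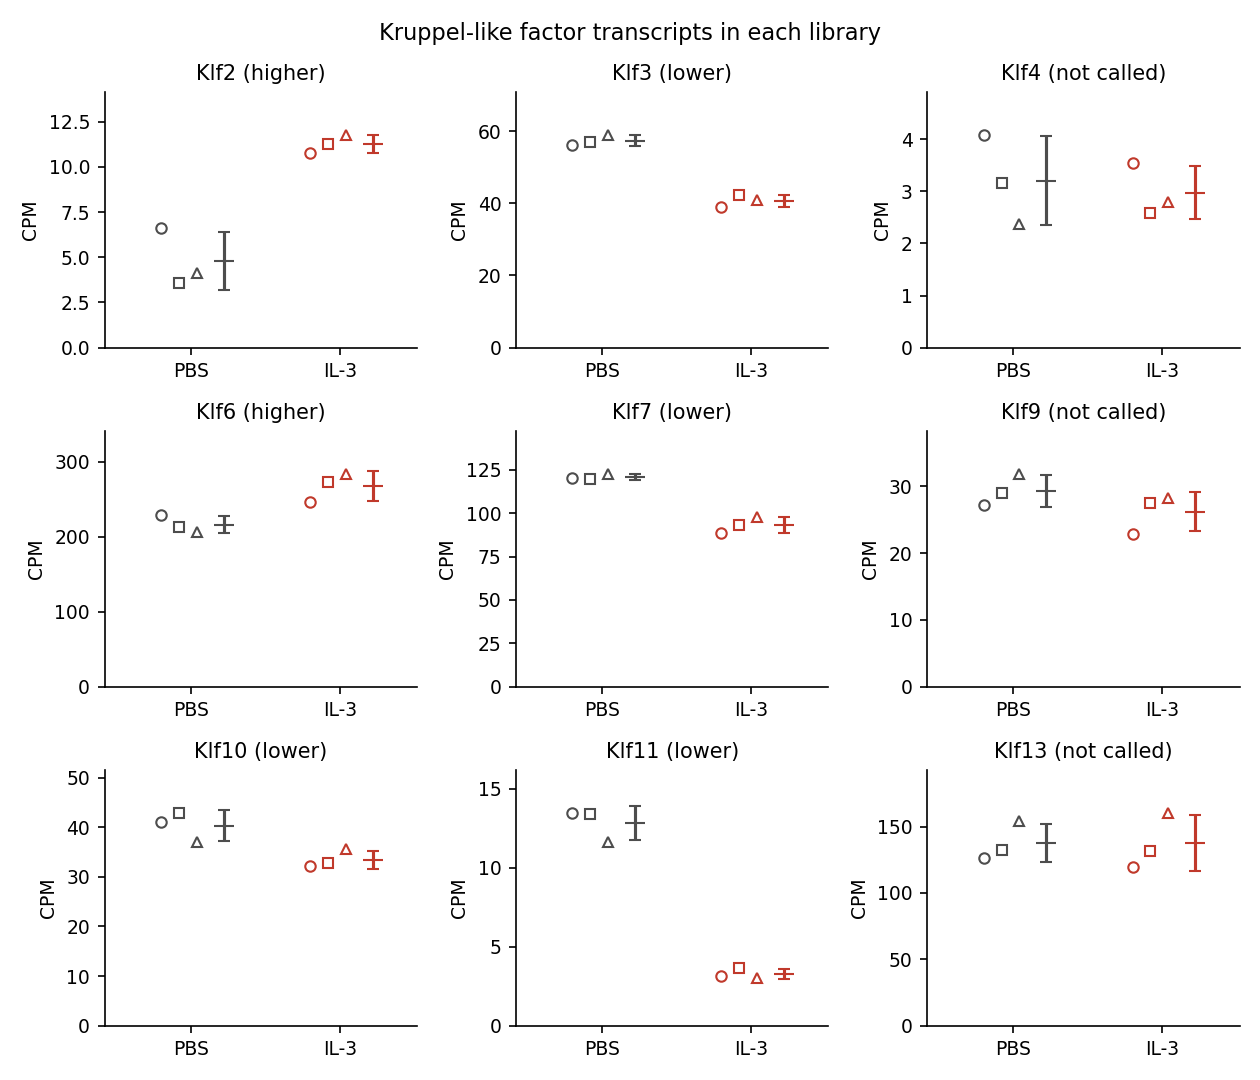
CPM (y axis, each panel from 0) of the 9 factors in each library, with circles, squares and triangles for replicates 1, 2 and 3 and the mean ± SD beside them. Klf2 and Klf6 in IL-3 lie above all PBS libraries, Klf3, Klf7, Klf10 and Klf11 lie below, and Klf4, Klf9 and Klf13 overlap.

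Klf3, a CtBP-binding repressor that restrains other KLFs at CACCC sites in blood cells, had 56.1, 56.9 and 59.0 CPM in PBS. In IL-3 it had 39.0, 42.2 and 40.9 CPM. Each group was tight and the groups were well apart. Klf3 (chromosome 5, 64803388 to 64832901) fell by 0.49 on the log2 scale (SE 0.0726, edgeR adjusted p 5.33e-05). The value lay between -0.66 and -0.47 under the 14 alternative fits run for it.

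Klf11 and Klf10 are known as TGF-beta-inducible early genes, and both encode Sin3A-binding repressors. Klf11 (chromosome 12, 24651274 to 24662789) had 13.5, 13.4 and 11.6 CPM in PBS and 3.16, 3.66 and 3.02 CPM in IL-3. The highest IL-3 library was thus far below the lowest PBS library. The raw counts were 132 to 165 in PBS and 32 to 44 in IL-3. Its log2 fold change of -1.97 (SE 0.166, edgeR adjusted p 1.16e-07) was the 80th lowest of the 16675 genes tested. Monocyte and macrophage markers fell in the same libraries (7 of 10 lower, median log2 fold change -0.94), and their part in the fall of Klf11 was not tested.

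Klf10 (chromosome 15, 38291463 to 38300706) had a log2 fold change closer to 0 than that of Klf11. It had 41.1, 43.0 and 37.0 CPM in PBS and 32.2, 32.7 and 35.5 CPM in IL-3. The groups lay next to each other without overlap. Klf10 fell by 0.27 on the log2 scale (SE 0.0872, edgeR adjusted p 0.0237), and the call was lost when any of 4 libraries was left out. The adjusted p was then 0.0639 without PBS replicate 1, 0.0962 without PBS replicate 2, 0.0756 without IL-3 replicate 1 and 0.0804 without IL-3 replicate 2.

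Klf9, a factor induced by glucocorticoids and thyroid hormone, had 27.2, 28.9 and 31.9 CPM in PBS and 22.9, 27.5 and 28.2 CPM in IL-3. The groups overlapped. Its log2 fold change was -0.16 (interval -0.38 to 0.07, edgeR adjusted p 0.267). With library totals it was -0.32 with an adjusted p of 0.0230, so the call depends on the scaling. Klf13, known for a role in T cell chemokine expression, had 126, 132 and 154 CPM in PBS and 119.7, 132 and 161 CPM in IL-3. Both groups spread widely around nearly the same mean, and the log2 fold change had an interval of -0.20 to 0.20 (edgeR adjusted p 0.994).

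Levels of different genes were compared per kb of the longest coding transcript. In PBS the order from high to low was Klf6, Klf13, Klf7, Klf10, Klf3, Klf9, Klf11, Klf2 and Klf4. Klf6 had 51.1 ± 2.70, Klf13 21.5 ± 2.26 and Klf4 1.06 ± 0.283 CPM per kb (SD, n = 3 each). Of the neighbours in this order, only the ranges of Klf11 and Klf2 overlapped. In IL-3 Klf2 had moved from rank 8 to rank 6 and Klf11 from rank 7 to rank 9. There the ranges of Klf7 and Klf10, of Klf2 and Klf9, and of Klf4 and Klf11 overlapped.

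Summed over the 9 genes, the level was 126 ± 1.93 CPM per kb in PBS and 129 ± 9.80 in IL-3 (SD, n = 3 each), with ranges that overlapped. Its make-up differed. Klf6 had 40.5% of the sum in PBS and 48.9% in IL-3, and Klf2 had 2.05% and 4.72%. Klf11 went from 2.50% to 0.623% of the sum. When length was taken as the union of all exons, Klf9 stood above Klf3 in both groups and Klf2 stood above Klf3 in IL-3. The cDNA was primed at the poly(A) tail, and coverage along transcripts was not measured, so the order of near neighbours is uncertain.

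**Figure D3:**
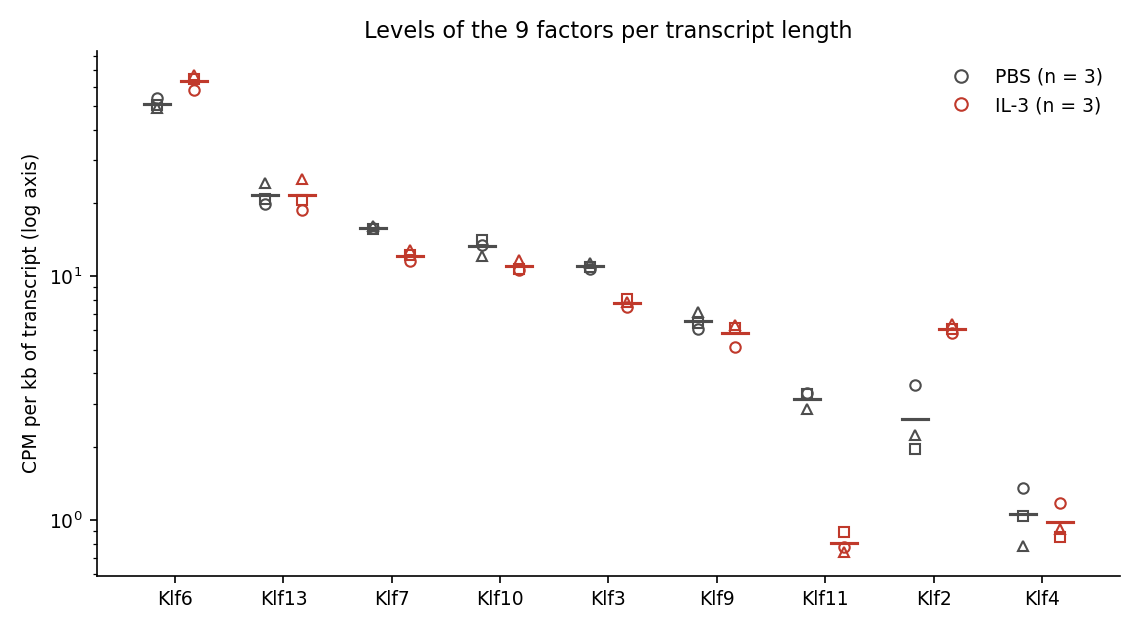
Level of each factor as CPM per kb of transcript (log axis) in the PBS (grey) and IL-3 (red) libraries, with lines at the group means and symbols by replicate. Klf6 is highest in both groups, at 51.1 and 63.3 CPM per kb, and Klf11 has 3.14 in PBS and 0.803 in IL-3.

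Ratios of raw counts within a library do not depend on the scaling between libraries. They were formed for pairs of related factors, chosen after their values were seen. Klf10 had 3.04, 3.20 and 3.18 counts for each Klf11 count in the PBS libraries and 10.2, 8.93 and 11.7 in the IL-3 libraries. The ratio of Klf6 to Klf7 was 1.90, 1.78 and 1.68 in PBS and 2.78, 2.92 and 2.90 in IL-3. That of Klf2 to Klf4 was 1.62, 1.14 and 1.74 in PBS and 3.03, 4.35 and 4.22 in IL-3. In these 3 pairs every IL-3 library had a higher ratio than every PBS library. The ratio of Klf13 to Klf9 was 4.69 ± 0.128 in PBS and 5.24 ± 0.442 in IL-3, with groups that overlapped.

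**Figure D4:**
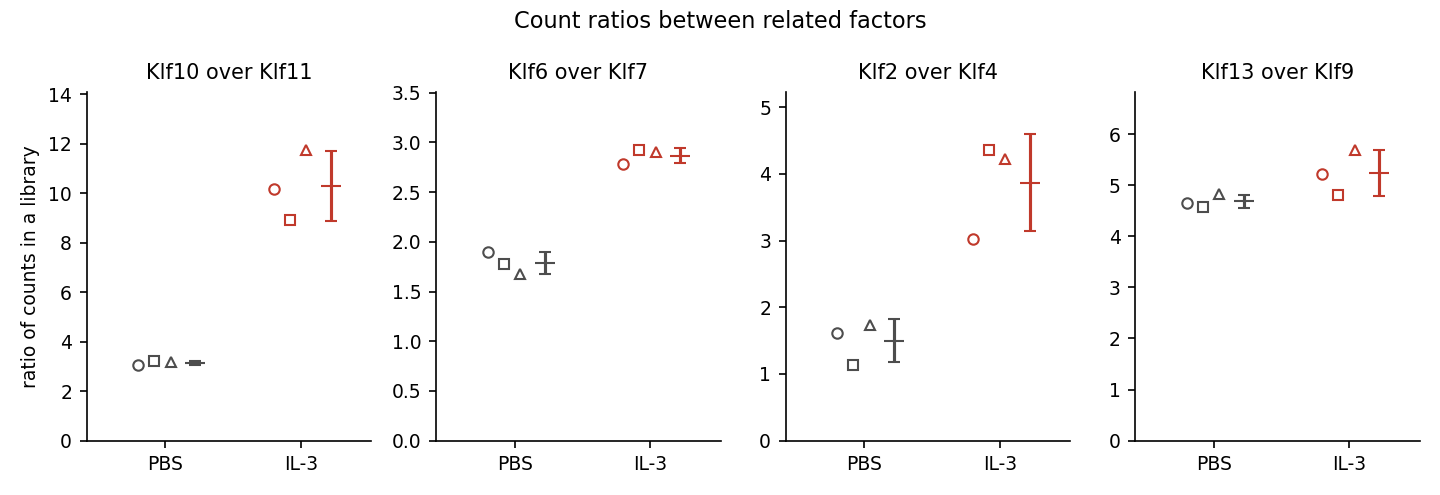
Ratio of the raw counts of related factors in each library (y axis from 0), with symbols by replicate and the mean ± SD beside them. Klf10 over Klf11 has a mean of 3.14 in PBS and 10.3 in IL-3, and Klf13 over Klf9 overlaps between the groups.

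The other 8 KLF genes were examined in the same way, and 4 of them could be tested. Klf5, an activator known from epithelia and granulocyte formation, had 35.8, 31.9 and 29.2 CPM in PBS and 74.4, 75.9 and 77.3 CPM in IL-3. Its log2 fold change was 1.23 (SE 0.0804, edgeR adjusted p 5.06e-09), as large as that of Klf2 and at a higher count. Klf12, a CtBP-binding repressor, fell by 0.70 (edgeR adjusted p 0.00689). Klf16, a Sin3A-binding repressor, rose by 0.46 (edgeR adjusted p 0.0135). That call was lost without PBS replicate 2 (adjusted p 0.0549) and without IL-3 replicate 1 (adjusted p 0.0589), and with library totals (adjusted p 0.102).

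Klf8 had 8 to 27 counts per library and a log2 fold change of -0.03 with an interval of -0.89 to 0.83. Klf1 had 15, 12 and 3 counts in PBS and 9, 0 and 1 in IL-3. Klf14 and Klf15 had 1 count in 1 library each, and Klf17 had 0 in all, which allows up to 3 counts or 0.214 to 0.285 CPM per library, for counting error only. By class, 2 of 3 tested CtBP-binding repressors were lower. Of 5 tested activators 3 were higher and 1 was lower, and of 5 tested Sin3A-binding repressors 1 was higher and 2 were lower. Over the family 9 of 13 tested genes were called, 4 higher and 5 lower, beside 38.2% of all genes tested (18% higher and 20.2% lower). Scaled by library totals, 1 of the 9 factors was higher and 5 were lower, and Klf16 was not called, beside 1698 genes higher and 5030 lower among all genes tested. With so few genes in a class, the counts by class are a description.

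KLFs share their binding sites with the Sp factors and act through cofactors. Of 4 tested Sp factors 2 were higher, namely Sp2 (log2 fold change 0.58, edgeR adjusted p 0.000144) and Sp4 (0.37, edgeR adjusted p 0.00735). Of 10 cofactors 3 were higher and 0 lower. Among all genes tested 38.2% were called, 18% higher and 20.2% lower. The number of cofactors called was not above the 38.2% called in either direction, though all 3 were higher, beside 18% of all genes. The counts of the lists that follow are to be read against the same shares. The 3 cofactors were Ep300, a histone acetyltransferase, at 0.36, Hdac1, a histone deacetylase, at 0.40 and Sin3b, a scaffold of repressor complexes, at 0.18. Ctbp1 and Ctbp2, the partners of KLF3 and KLF12, were at -0.06 and -0.12 and were not called. The median log2 fold change was 0.27 for the Sp factors and 0.12 for the cofactors, beside -0.0033 for all genes tested.

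Of 6 enzymes that add or remove ubiquitin on KLF proteins, 4 were higher and 1 was lower, with a median of 0.28. Scaling by library totals gave 3 called here and 1 among the Sp factors. Smurf1 rose by 0.91 (edgeR adjusted p 4.23e-06) and Fbxw7 by 0.50 (edgeR adjusted p 0.00197). Both are ubiquitin ligases that act on KLF2. Wwp1, another ligase of KLF2, fell by 0.74 (edgeR adjusted p 1.27e-05). The number called was 3 in place of 5 when either PBS replicate 2 or IL-3 replicate 2 was left out.

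The kinase ERK5 (Mapk7) and MEF2 factors drive transcription of Klf2 and Klf4, and FOXO factors act on Klf2. In this list of inputs 5 of 9 tested genes were lower and 0 were higher, with a median of -0.27, in the same libraries in which Klf2 was higher. Mef2c had 15.3, 15.1 and 13.9 CPM in PBS and 5.73, 3.75 and 5.12 CPM in IL-3, and it fell by 1.61 on the log2 scale (edgeR adjusted p 1.06e-06). Mef2a fell by 0.27 (edgeR adjusted p 0.00246) and Mef2d by 0.32 (edgeR adjusted p 0.0107), the latter with overlapping groups. Mapk7 itself had a log2 fold change of 0.27 and was not called. In the same libraries 7 of 10 monocyte and macrophage markers were lower, with a median of -0.94 and a summed level of 11752 to 12672 CPM in PBS and 6156 to 6776 CPM in IL-3, and their part in the values of this list was not tested.

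The TGF-beta pathway induces Klf10 and Klf11. Of its 9 genes 2 were higher and 2 were lower, with a median of 0.04. The 4 of 9 called are near the 38.2% called among all genes tested. Tgfb1, the ligand, had 565, 623 and 619 CPM in PBS and 929, 927 and 936 CPM in IL-3 (log2 fold change 0.63, edgeR adjusted p 3.84e-08). Tgfbr2, a receptor subunit, fell by 0.73 (edgeR adjusted p 7.90e-06), and Smad3, a signal transducer, fell by 1.32 (edgeR adjusted p 0.00168). Smad7, an inhibitor of the pathway, was at -0.06 and was not called. The falls in this list, too, came in the libraries with lower monocyte and macrophage markers, whose part was not tested.

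All 7 genes of the glucocorticoid list were called, 5 lower and 2 higher, with a median of -0.88. Tsc22d3, which encodes the protein GILZ, had 37.6, 35.5 and 33.1 CPM in PBS and 11.4, 9.08 and 9.54 CPM in IL-3. Its log2 fold change was -1.83 (edgeR adjusted p 3.28e-09). Sgk1, a kinase, fell by 0.88 (edgeR adjusted p 2.64e-08) and Nr3c1, the glucocorticoid receptor, by 0.75 (edgeR adjusted p 1.12e-07). The genes called higher were Fkbp5 at 0.51 and Dusp1 at 0.34, named after their values were seen, and Klf9 did not pass the test. The 5 genes called lower fell in the libraries with lower monocyte and macrophage markers (median -0.94), whose part in this list was not tested.

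Of 6 tested genes linked to KLF2 in leukocytes and endothelium, 2 were higher and 2 lower, with a median of -0.41. Cdkn1a, encoding the cell cycle inhibitor p21, rose by 2.03 (edgeR adjusted p 1.39e-13). S1pr1, the receptor that guides lymphocytes out of tissues, fell by 0.83 (edgeR adjusted p 1.10e-05). The genes of this list thus went both ways beside the rise of Klf2.

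**Figure D5:**
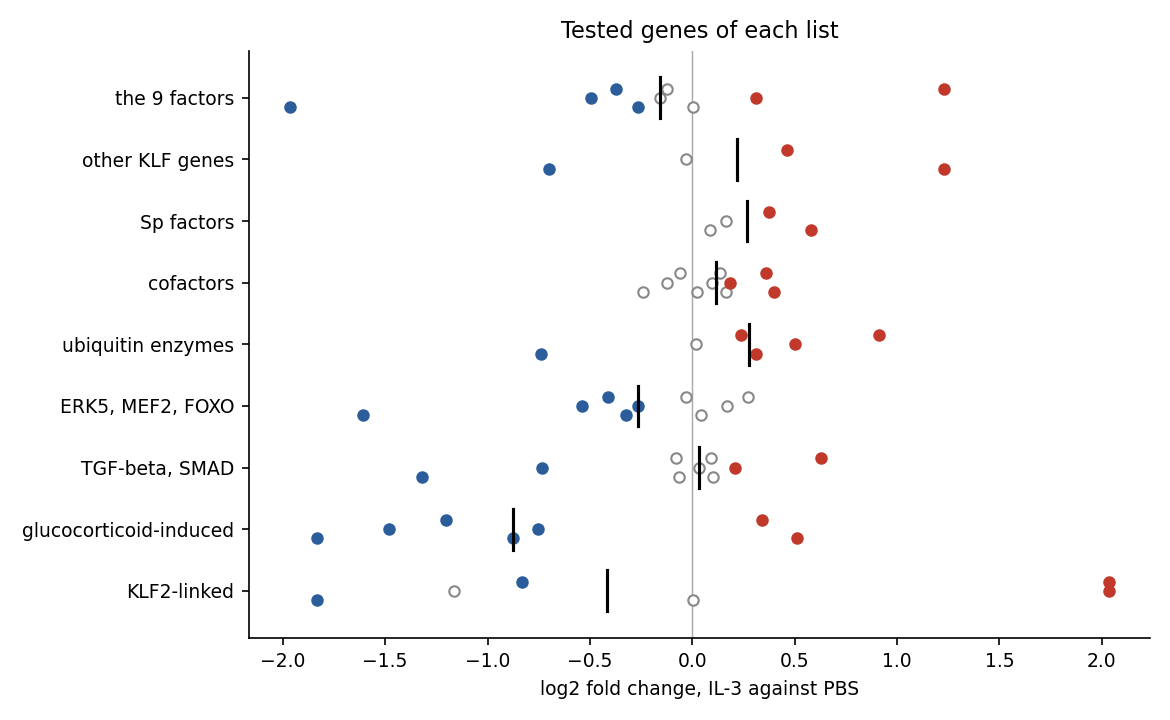
Log2 fold changes (x axis, IL-3 against PBS) of the tested genes of each list, with black bars at the list medians. Red and blue points were called higher and lower, and open points were not called. The ERK5, MEF2 and FOXO list has 5 genes called lower and 0 higher, and the glucocorticoid list has a median of -0.88.

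The genes whose pattern over the 6 libraries was most like that of Klf11, by Pearson's r of log2 CPM, were Cav2, Lrrc56 and Mpp1. Their log2 fold changes were -1.12, -1.14 and -1.27. The 6 libraries share the difference between the groups, and 1158 genes had an r above 0.95. The monocyte and macrophage markers also differed between the groups in the direction of Klf11 (7 of 10 lower), so the likeness does not set these 3 genes apart.

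The libraries held 10537540 to 13999287 counts, and none stood apart by depth. Basophil markers were abundant, with a summed level of 9877 to 11026 CPM in PBS and 14622 to 14837 CPM in IL-3, and 4 of 6 were higher and 1 lower. Monocyte and macrophage markers were abundant too. Of these 7 of 10 were lower and 2 higher, with the summed levels given above beside the ERK5, MEF2 and FOXO list. Their part in the changes of the KLFs, several of which monocytes also express, was not tested. In bulk RNA, fewer cells of a type and less RNA per cell cannot be told apart. Of 6 mast cell markers 4 were higher and 1 lower (877 to 1016 CPM in PBS and 1453 to 1581 CPM in IL-3). Neutrophil markers had 3 higher and 1 lower of 7 tested (122 to 159 and 195 to 259 CPM), and eosinophil markers had 1 higher and 3 lower of 5 (155 to 173 and 95.02 to 136 CPM). Erythroid markers had 2 lower of 3 (97.5 to 215 and 51.6 to 97.2 CPM), both of them near-identical alpha globin genes. Of NK cell markers 1 was tested and was higher (5.81 to 9.29 and 28.8 to 32.6 CPM). T cell markers had none called of 3 (10.5 to 18.9 and 8.19 to 16.0 CPM), B cell markers 1 lower of 3 (6.22 to 9.07 and 3.91 to 6.52 CPM) and dendritic cell markers none of 4 (77.9 to 85.0 and 67.6 to 76.4 CPM). Of stromal and endothelial markers Pecam1 alone was tested and was higher, and the list had 130 to 149 CPM in PBS and 167 to 169 CPM in IL-3. Gzma, Cd209a and Alas2 had 0 counts in all libraries.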

How the data were processed

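The authors deposited raw read counts per gene symbol for 6 libraries of one bulk RNA-seq experiment. According to the methods, oligo-dT beads were used to isolate mRNA, cDNA was made, amplified and fragmented, and the authors trimmed reads with Cutadapt, mapped them with Bowtie2 to GRCm38 reference RNA and counted reads per gene. The submitters' processing notes list Cutadapt 3.4, as the methods do, but give the build as GRCm39. Gene spans and lengths given here are from GENCODE M21 (GRCm38). The labels name a column kit for RNA extraction, the methods direct lysis. No molecular identifiers are described, so PCR copies count as reads.

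Tests on the counts used edgeR 4.0.16 under R 4.3.3 (filterByExpr, TMM, quasi-likelihood F test, group as the only term). P-values are two-sided and Benjamini-Hochberg adjusted over all genes tested, and a gene was called below 0.05. CPM used TMM-scaled library sizes. SEs and 95% intervals were derived from F. The script was tested on simulated counts.

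The 9 members, 8 pathway lists and 11 marker lists were chosen with earlier results of these data known. Genes named were the 9 factors, the other KLF genes, up to 3 called genes per pathway list with the smallest adjusted p, and the 3 genes most like Klf11. A gene that this rule selects is not reported here. Ctbp1, Ctbp2, Mapk7, Smad7, Nkg7, Pecam1 and genes overlapping a KLF were named after their values were seen.

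At most 0.350% of the 50-mers of any of the 9 genes' transcripts occurred in another gene. Alternatives were DESeq2 1.42.0 size factors and Wald test, library totals, iterated TMM, other filters, limma-voom (limma 3.58.1), a replicate block, thresholds of 0.01 and 0.1, exon-union lengths, and leaving out each library.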

Additional observations from a re-analysis of the deposited data

How the results depend on the processing

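The calls of Klf2, Klf3, Klf7 and Klf11 held in direction and significance under all 14 alternative fits run for each. Library totals alone gave 1 member higher and 5 lower (2 and 4 in the analysis above) and 1698 genes higher and 5030 lower, with 25.2% of calls higher in place of 47.1%. Under that scaling Klf6 was at 0.15 (not called), Klf9 at -0.32 (called), Klf13 at -0.17 and Klf16 at 0.30, and 1 Sp factor and 3 ubiquitin enzymes were called (this scaling shifted the median of all genes to -0.17). Klf13 was also at -0.022 with iterated TMM and at -0.0062 with the replicate block. The replicate block gave 2842 genes higher and 3247 lower and changed no call of the 9 genes. The deviations of same-numbered libraries correlated at -0.0087, -0.016 and -0.022, which does not pair the libraries.

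With 1 library left out, the members called were 2 higher and 3 to 4 lower, and the ubiquitin enzymes called were 3 to 5. The log2 fold change ranged from -0.33 to -0.22 for Klf10, from -0.13 to 0.089 for Klf13, from -0.30 to 0.094 for Klf4 and from 0.40 to 0.55 for Klf16. The cause of these changes was not tested. Klf4 and Klf8 had at most 50 and 27 counts per library, and their intervals include changes of the size of that of Klf3. How far depth or the spread between cultures sets these intervals was not tested.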
